A study of Mus musculus with 2 samples.

Results

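The 26S proteasome was followed in splenic monocytes of ICR mice, an outbred stock, taken 8 weeks after sham surgery or 5/6 nephrectomy (5/6Nx). The members are the genes whose array name starts with Psma, Psmb, Psmc, Psmd, Psme, Psmf or Psmg, without Psmb8, Psmb9 and Psmb10, the catalytic subunits of the immunoproteasome. The rule took 46 genes with 90 probes, out of 37074 gene names on the array. A 5/6 nephrectomy removes most of the kidney tissue and serves as a model of chronic kidney disease. The cells had been stained for CD11b and Ly6C and isolated by flow cytometry, and RNA from each group was labelled with Cy3 and hybridised to 1 Agilent array. The groups therefore differ in the operation and share stock, sort and time. How many mice gave each RNA, and their age, are not given in the sources used here. All 8 monocyte markers that were looked up, among them Itgam, which encodes CD11b, and the growth factor receptor gene Csf1r, were well above background on both arrays.

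The proteasome degrades proteins that carry chains of ubiquitin. Its 20S core is a barrel of alpha rings, which gate the entrance, and beta rings, which hold the proteolytic sites, and the 19S particle that caps the barrel recognises, unfolds and feeds in the substrate. Other caps, the PA28 complexes and PA200, open the barrel without ubiquitin recognition, and a set of chaperones builds core and cap. In monocytes and macrophages interferon gamma is known to switch on the PA28 alpha and beta genes together with the immunoproteasome, which favours the production of peptides for MHC class I.

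A level here is log2 of the processed spot signal minus the array's 75th percentile, which corresponded to an intensity of 439.2 for sham and 544.5 for 5/6Nx. A difference is the 5/6Nx level minus the sham level, so a gene with equal intensities on both arrays has a difference below 0. A gene was measured when a probe was well above background on both arrays, and its brightest such probe stands for it. Since each group has a single array (n = 1), no error or test could be given, and every difference is one between these arrays. As a guide to spot noise only, repeated spots of 283 probes gave an SD of 0.06 for a difference. Each member probe was printed once. In such bulk RNA, fewer cells of a type and less RNA per cell cannot be told apart.

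Of the 46 members 45 were measured. After 5/6Nx 3 of them (6.67%) were at least 2-fold higher, against 11.8% of the 22304 gene names measured, and 3 (6.67%) were at least 2-fold lower, against 9.71%. The 3 higher genes were Psme1 and Psme2b of the PA28 cap and the chaperone Psmd10. The 3 lower genes were Psmd1 and Psmd2, the scaffold subunits of the 19S base, and the chaperone Psmd5. The other 39 (86.7%) lay within 2-fold, as did 78.5% of all measured gene names. With a limit of 1.5-fold 3 members were higher and 7 lower, against 21.2% and 22.1% of all measured gene names. The median difference of the members was -0.21, against -0.10 for all measured gene names. Gene names with a signal in the members' interquartile range had a median of -0.21 (n = 3518), so the median of the members as a whole lay with that of other genes as bright.

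**Figure D1:**
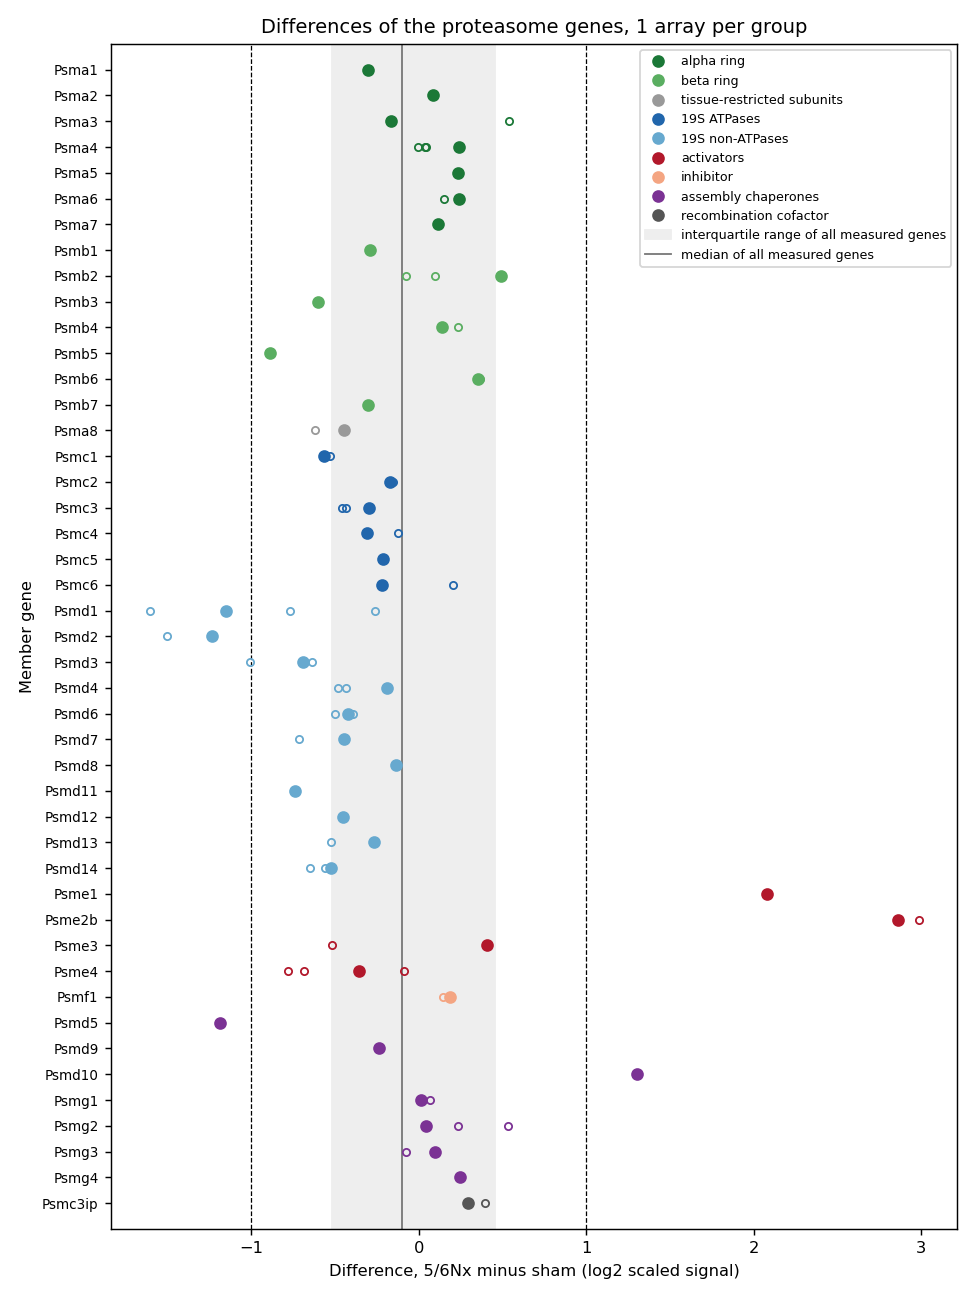
Difference of each measured member gene (5/6Nx minus sham, log2 scaled signal, x axis), grouped by place in the complex, with 1 array per group. Filled points are the gene's brightest measured probe and open points its other measured probes, the grey line and band give the median and interquartile range of all measured gene names, and dashed lines mark 2-fold. The PA28 genes Psme1 and Psme2b stand at 2.08 and 2.86, and the 19S genes all lie left of the grey line.

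The activators held the largest differences. Psme1 encodes PA28 alpha, a subunit of the interferon-inducible cap. Its probe (chromosome 14, 56200194 to 56200253, mm9) had an intensity of 4611 in sham and 24173 in 5/6Nx cells, a difference of 2.08 or 4.23-fold. The other subunit, PA28 beta, was read by probes that the files name Psme2b. The brighter of them (chromosome 11, 48758875 to 48758934, mm9) read 13144 and 118419, a difference of 2.86 or 7.27-fold, and the second (chromosome 11, 48759495 to 48759554) read 3070 and 30199, a difference of 2.99. Both are annotated to transcripts of Psme2 as well as of its copy Psme2b, so these genes cannot be told apart, and no other member probe was annotated to more than 1 RefSeq gene. Across the 11 alternative settings that gave each gene a value, Psme1 ran from 1.93 to 2.45 and Psme2b from 2.71 to 3.23.

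Psme3, which encodes the nuclear cap protein PA28 gamma, is related to Psme1 and Psme2 but is not known as an interferon-induced gene. Its brighter probe (chromosome 11, 101184289 to 101184348, mm9) read 1381 in sham and 2268 in 5/6Nx cells, a difference of 0.41. Its other probe (101178390 to 101178649), whose accession matched no RefSeq gene, read 256.4 and 222.2, a difference of -0.52. The probes of Psme3 thus had opposite signs, and their mean was -0.06. Psme4 encodes PA200, a large cap of the nucleus. Its brightest probe read 7386 and 7160, a difference of -0.35, and its 4 measured probes ran from -0.78 to -0.09. For Psmf1, the proteasome inhibitor PI31, the intensities were 528.8 and 745.9, a difference of 0.19, and a second measured probe gave 0.15. Another probe of Psmf1 was well above background on the sham array only, at 16.8 against 12.9.

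The immunoproteasome subunits that PA28 alpha and beta accompany were read at 1703 and 24437 for Psmb8, at 718.9 and 23809 for Psmb9 and at 6011 and 64631 for Psmb10, sham before 5/6Nx. These are differences of 3.53, 4.74 and 3.12. Interferon-response genes were higher after 5/6Nx as well: 8 of the 10 looked up were measured, all of them at least 2-fold higher, and the other 2, Ifit3 and Cxcl10, were well above background in 5/6Nx cells alone. Their summed signal, in units of the array's 75th percentile, was 12.6 in sham and 1165.5 in 5/6Nx cells. Most T and NK cell markers were higher too, while the B cell marker genes Pax5, Ms4a1 and Cd79b differed by 0.03, 0.68 and 1.92. Of 10 T cell markers 8 were measured and 7 of these were at least 2-fold higher, Cd8a was well above background after 5/6Nx alone and Trac was not found by name, with a summed signal of 3.08 against 60.5. Of 8 NK cell markers 4 were measured, all at least 2-fold higher, and the other 4 (Ncr1, Klrb1c, Klrd1 and Eomes) were well above background after 5/6Nx alone, with a summed signal of 0.76 against 75.2. Proliferation genes summed to 1.27 against 11.7, with 3 of 5 measured and all 3 at least 2-fold higher. The other 2, Ccna2 and Cdk1, were well above background after 5/6Nx alone. The monocyte markers had a median difference of -0.31, with 5 of 8 below 0, from -1.48 for Fcgr3 to 1.98 for Ly6c1 and Ly6c2. Their summed signal was 1312 against 1588, and Ly6c1 and Ly6c2 were the only ones at least 2-fold higher. The part of other cell types in the PA28 values was not tested.

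**Figure D2:**
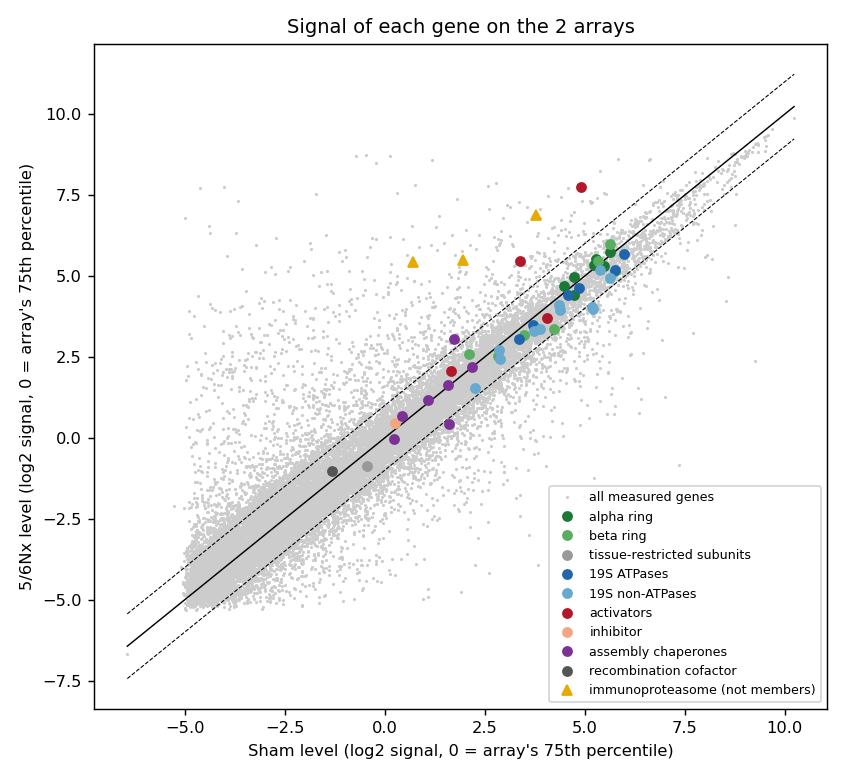
Level of each gene on the sham array (x axis) and on the 5/6Nx array (y axis), log2 signal with 0 at the array's 75th percentile. Grey dots are all measured gene names, coloured dots the members and triangles the immunoproteasome genes, which are not members. The solid line marks equal levels and the dashed lines 2-fold. Psme1 and Psme2b lie with the immunoproteasome genes above the upper dashed line, while most members follow the solid line.

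Promoter windows were looked at for the members with the largest differences and for the catalytic subunits that differed in opposite directions. They run from 250 bases before to 50 after a gene's start (RefSeq, GRCm38.p6), and 38 of the members had one, with 40 windows in all, those of Psme2 not counted. The window of Psme1 (chr14:55578244-55578543, plus strand) and one of the windows of Psme2 (chr14:55591052-55591351, minus strand) are printed because these genes form the cap with the largest differences. Capitals mark a match to any of 4 motifs on either strand: the interferon-stimulated response element, 2 runs of GAAA with 2 bases between them, the gamma-activated site TTCNNNGAA, the antioxidant response element core TGACNNNGC and the CCAAT box CCAAT.
Psme1: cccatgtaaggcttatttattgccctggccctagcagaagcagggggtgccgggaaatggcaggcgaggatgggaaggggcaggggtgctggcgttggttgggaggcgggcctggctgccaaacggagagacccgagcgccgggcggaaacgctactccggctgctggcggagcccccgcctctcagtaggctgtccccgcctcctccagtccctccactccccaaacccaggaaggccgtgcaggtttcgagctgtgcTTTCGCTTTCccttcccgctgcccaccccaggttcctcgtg
Psme2: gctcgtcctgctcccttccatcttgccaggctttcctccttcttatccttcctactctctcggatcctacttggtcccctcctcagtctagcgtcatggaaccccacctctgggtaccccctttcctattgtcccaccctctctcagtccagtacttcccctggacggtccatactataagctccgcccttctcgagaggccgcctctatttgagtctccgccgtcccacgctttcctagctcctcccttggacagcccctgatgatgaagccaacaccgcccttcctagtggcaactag
The Psme1 window holds TTTCGCTTTC, a match to the interferon-stimulated element on the minus strand relative to the gene, from base 10 after the start. No window of Psme2 or Psme2b holds a match to any of the 4. This element is in 5 of 40 member windows (12.5%) and in 3.44% of all 32851 windows, the gamma-activated site in 2 (5%) against 8.30%. Besides Psme1 the windows with the interferon-stimulated element were those of Psmb3, Psmd4, Psmd9 and Psmg4, whose differences were -0.60, -0.19, -0.24 and 0.25. A match is a description of letters and not a binding site.

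In the 20S core, no subunit reached 2-fold in either direction. The alpha ring had a median of 0.11 over 7 genes, from -0.31 for Psma1 to 0.24 for Psma4, with 5 of 7 above 0. Psma1 read 11601 in sham and 11638 in 5/6Nx cells, and Psma4 read 17230 and 25265. The other 3 probes of Psma4 gave 0.04, 0.04 and -0.01, and its mean over probes was 0.08. Psma5 and Psma6 differed by 0.23 and 0.24, Psma7 by 0.11, Psma2 by 0.09 and Psma3 by -0.16. A dim probe of Psma3 whose accession matched no RefSeq gene gave 0.54, while its other probe gave -0.17. With median scaling the median of the ring was -0.036.

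The beta ring was more spread, with a median of -0.29 over 7 genes and a range of -0.89 to 0.49. Its proteolytic subunits went different ways. Psmb5, the chymotrypsin-like subunit and the main target of proteasome inhibitor drugs (chromosome 14, 55233161 to 55233220, mm9), read 8309 in sham and 5576 in 5/6Nx cells, a difference of -0.89 or 1.85-fold lower. Psmb6, the caspase-like subunit (chromosome 11, 70341093 to 70341152), read 21966 and 34792, a difference of 0.35, and its other probe gave 0.37. Psmb7, the trypsin-like subunit, read 3133 and 3155, a difference of -0.30. In immunoproteasomes Psmb8 takes the place of Psmb5, Psmb9 that of Psmb6 and Psmb10 that of Psmb7. Of the constitutive partners thus 1 was higher and 2 were lower, whereas the 3 inducible partners were all at least 8.67-fold higher. Psmb7 was not lower with spike-in scaling (0.066) or no scaling (0.010). Psmb5 and Psmb7 each rest on 1 probe.

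Among the structural beta subunits Psmb3 read 23791 and 19414, a difference of -0.60. Psmb1 differed by -0.29 and Psmb4 by 0.14. For Psmb2 the brightest probe gave 0.49 and the other probes -0.07 and 0.10. Psmb2 was therefore the highest of the ring only through 1 of its 3 probes, whose accession matched no RefSeq gene, and its mean over probes was 0.17.

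The windows of Psmb5 (chr14:54617946-54618245, minus strand) and Psmb6 (chr11:70525107-70525406, plus strand) are shown because both carry the antioxidant response element core, the motif bound by the proteasome regulator NRF1, while their differences had opposite signs.
Psmb5: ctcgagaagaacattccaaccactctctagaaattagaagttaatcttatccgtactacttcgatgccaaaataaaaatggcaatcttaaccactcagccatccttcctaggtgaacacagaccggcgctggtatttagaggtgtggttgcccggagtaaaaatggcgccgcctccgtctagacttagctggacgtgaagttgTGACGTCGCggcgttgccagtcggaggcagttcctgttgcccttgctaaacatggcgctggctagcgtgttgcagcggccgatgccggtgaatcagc
Psmb6: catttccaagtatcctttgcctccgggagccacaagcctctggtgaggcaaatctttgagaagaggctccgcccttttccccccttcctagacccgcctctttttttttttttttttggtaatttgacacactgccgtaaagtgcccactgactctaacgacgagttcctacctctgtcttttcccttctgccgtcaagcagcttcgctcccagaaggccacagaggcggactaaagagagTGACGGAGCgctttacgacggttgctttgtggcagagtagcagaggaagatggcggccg
The match is TGACGTCGC in Psmb5, from 47 bases before the start, and TGACGGAGC in Psmb6, from 9 bases before it. The core is in 6 of 40 member windows (15%) and in 12.4% of all windows. The other 4 belong to Psmc6, Psmd9, Psmd12 and Psme4, whose differences were -0.22, -0.24, -0.45 and -0.35. The CCAAT box is in 14 member windows (35%) and in 37.4% of all.

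The 19S particle had a lower median than the 20S core. All 17 of its measured subunits had differences below 0 and below the median of all measured gene names, with a median of -0.43, while 55.6% of all measured gene names lay below 0. Among gene names with a signal in the members' interquartile range the median was -0.21, and 65.3% lay below 0. Psmd8 (-0.13), Psmc2 (-0.17) and Psmd4 (-0.19) were above that median. The 20S core had a median of 0.10 over 14 genes, so that the 19S median minus the 20S median was -0.52. Every 19S gene was below the 20S median, and 8 of 14 core genes were above the highest 19S gene. The core was not uniform, since the beta ring alone had a median of -0.29, against -0.26 for the 19S ATPases. Psmb5 at -0.89 and Psmb3 at -0.60 lay within the range of the 19S genes, -1.23 to -0.13. The gap between the 19S and 20S medians ran from -0.54 to -0.50 over the alternative settings, and a change of scaling factor alone leaves it as it is. The sign of the single 19S genes is less firm. With spike-in scaling, which moved the median of all gene names by 0.37, 9 of 17 were below 0, although all 17 stayed below that median. With 4 other settings 15 of 17 were below the median of all gene names, among them quantile normalization and the authors' deposited value table.

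**Figure D3:**
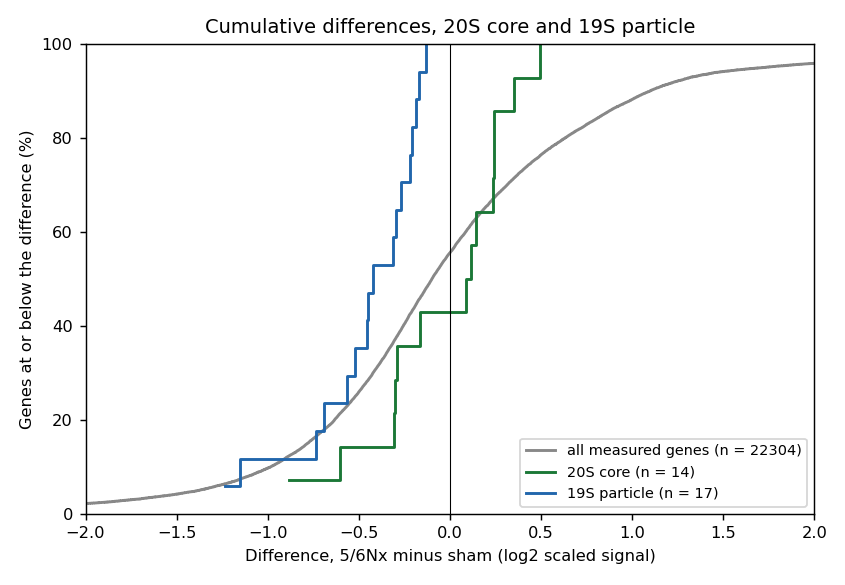
Cumulative share of genes (y axis, percent) at or below a given difference (x axis, 5/6Nx minus sham, log2 scaled signal, drawn from -2 to 2) for the 14 genes of the 20S core, the 17 genes of the 19S particle and all 22304 measured gene names. The 19S curve is complete at -0.13, below 0, whereas the core curve reaches 0.49.

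The ATPases that form the motor of the 19S base differed little, with a median of -0.26 over 6 genes. The lowest was Psmc1, at 23813 in sham and 19985 in 5/6Nx cells, a difference of -0.56, and its second probe gave -0.53. The highest was Psmc2 at -0.17. Psmc3, Psmc4, Psmc5 and Psmc6 lay between them at -0.30, -0.31, -0.21 and -0.22, and a dim second probe of Psmc6 gave 0.20. None of the 6 was at least 1.5-fold lower.

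The other 11 subunits of the base and lid had a median of -0.45 and held the lowest values. Psmd2, the scaffold on which shuttle proteins dock (chromosome 16, 20663355 to 20663414, mm9), read 16398 in sham and 8655 in 5/6Nx cells, a difference of -1.23 or 2.35-fold lower. A dimmer probe of Psmd2 read 1359 and 593.9, a difference of -1.50. Psmd1, the related scaffold that carries a ubiquitin receptor (chromosome 1, 88035777 to 88035836, mm9), read 16044 and 8958, a difference of -1.15 or 2.22-fold lower. Both scaffold genes were thus lower with each of their probes. Psmd2 was below 0 but within 2-fold with spike-in scaling (-0.87) and no scaling (-0.92), and Psmd1 with these (-0.78 and -0.84) and with the mean over its probes (-0.95). The 4 probes of Psmd1 ran from -1.61 to -0.26, a span of 1.35, and it was the only member whose probes were over 1 apart. The probe at -0.26 lies farthest upstream, at 87964118 to 87964177, and read only 517.0 and 534.7.

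The window of Psmd2 (chr16:20651402-20651701, plus strand) is shown as that of the lowest member. Its capitals mark TTCTGGGAA, a match to the gamma-activated site from base 5 after the start, while the window of Psmd1 holds no match to any of the 4 motifs.
Psmd2: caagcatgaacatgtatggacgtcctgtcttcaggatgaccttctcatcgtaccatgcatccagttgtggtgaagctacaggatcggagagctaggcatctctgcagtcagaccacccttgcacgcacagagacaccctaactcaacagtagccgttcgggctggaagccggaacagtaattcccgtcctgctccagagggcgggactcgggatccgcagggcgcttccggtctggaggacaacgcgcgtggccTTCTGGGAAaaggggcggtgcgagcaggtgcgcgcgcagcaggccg
Of the lid subunits, Psmd11 read 2114 in sham and 1572 in 5/6Nx cells, a difference of -0.74, and Psmd3 read 21821 and 16737, a difference of -0.69. The probes of Psmd3 ran from -1.01 to -0.63. The one at -1.01 was dim, at 26.3 and 16.2, and its accession matched no RefSeq gene. A second probe of Psmd11 was not well above background on either array. Psmd14, the deubiquitinase that removes ubiquitin chains from the substrate, read 6477 and 5586, a difference of -0.52, and its 3 probes ran from -0.65 to -0.52. Psmd12, Psmd7 and Psmd6 differed by -0.45, -0.45 and -0.43 and Psmd13 by -0.27. Psmd4, the ubiquitin receptor of the base, read 18212 and 19808, a difference of -0.19, and its dimmer probes gave -0.48 and -0.44. Psmd8 had the smallest difference, -0.13. At least 1.5-fold lower were 4 of these 11 genes, Psmd1, Psmd2, Psmd3 and Psmd11, against 22.1% of all measured gene names.

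The assembly chaperones held values at both ends. The Psmg genes, whose products build the alpha ring, stood close to 0, at 0.01 for Psmg1, 0.04 for Psmg2, 0.10 for Psmg3 and 0.25 for Psmg4, although a dimmer probe of Psmg2 gave 0.54 and one of Psmg3 -0.07. The chaperones of the 19S base spread far wider. Psmd10, which encodes gankyrin (chromosome X, 137483484 to 137483543, mm9), read 1473 in sham and 4514 in 5/6Nx cells, a difference of 1.31 or 2.47-fold higher. Psmd5, which binds the same ATPase ring (chromosome 2, 34708108 to 34708167), read 1348 and 733.7, a difference of -1.19 or 2.28-fold lower. Psmd9 read 511.8 and 537.3, a difference of -0.24. Each of these 3 genes rests on 1 probe. Over the alternative settings Psmd10 ran from 1.16 to 1.67 and stayed at least 2-fold higher in all 11, and Psmd5 ran from -1.34 to -0.82 and stayed at least 2-fold lower in 9, all but spike-in scaling and no scaling.

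The window of Psmd10 (chrX:140956662-140956961, minus strand) is shown because it is the only member outside PA28 that was 2-fold higher. It holds none of the other motifs, and its capitals mark 3 CCAAT boxes.
Psmd10: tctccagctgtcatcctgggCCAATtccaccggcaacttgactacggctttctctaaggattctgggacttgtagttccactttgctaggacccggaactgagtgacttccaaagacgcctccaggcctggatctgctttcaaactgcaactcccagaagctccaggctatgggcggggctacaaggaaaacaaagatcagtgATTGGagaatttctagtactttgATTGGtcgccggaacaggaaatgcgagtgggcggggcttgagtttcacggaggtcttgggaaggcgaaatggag
The 3 further members are no part of the proteasome of most tissues. Psma8 encodes an alpha subunit of testis, was dim at 325.9 and 297.0, and differed by -0.44. Psmb11, the beta subunit of thymus cortex, was the member not measured, with 3.17 in sham and 2.85 in 5/6Nx cells, neither well above background. Psmc3ip, which shares the name stem but encodes a cofactor of meiotic recombination, read 176.8 and 268.6, a difference of 0.29.

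Other genes of the ubiquitin and proteasome pathway were looked up from a list of 30, of which 29 were measured (Paaf1 was not found by name). Apart from the immunoproteasome, none of 26 was at least 2-fold higher, against 11.8% of all measured gene names. At least 2-fold lower were 3 (11.5%), near the 9.71% of all measured gene names. The median of the 26 was -0.34 and 23 (88.5%) were below 0, against -0.10 and 55.6% for all measured gene names. For gene names with a signal in the members' interquartile range these values were -0.21 and 65.3%. The 3 lower genes were Ddi2, Ubqln2 and Vcp. Ddi2, a shuttle protein and the protease that activates NRF1, read 2573 in sham and 1208 in 5/6Nx cells, a difference of -1.40. The shuttle gene Ubqln2 read 4948 and 2668, a difference of -1.20, and Vcp, the segregase that pulls proteins out of membranes and complexes, read 13047 and 7755, a difference of -1.06. The 4 probes of Vcp ran from -1.48 to 0.23. The median of all 29 was -0.31, and 0.05 with spike-in scaling.

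Apart from the immunoproteasome, most subunits and partners outside the name rule had differences below 0, and only Pomp, Nfe2l1 and Nfe2l2 were above it. Akirin2 and AI314180 differed by -0.33 and -0.38. Adrm1, the ubiquitin receptor on Psmd1, differed by -0.74, the deubiquitinases Usp14 and Uchl5 by -0.84 and -0.37, and Shfm1, the small lid subunit, by -0.28. Pomp, the maturation protein that serves constitutive and immunoproteasome cores, read 26423 and 44114, a difference of 0.43. The transcription factor genes Nfe2l1, which encodes NRF1, and Nfe2l2, which encodes NRF2, differed by 0.66 and 0.92. The probes of Nfe2l1 ran from -0.09 to 0.66, and the second probe of Nfe2l2 gave 1.25. The ubiquitin genes Ubb and Rps27a differed by -0.04 and -0.29.

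**Figure D4:**
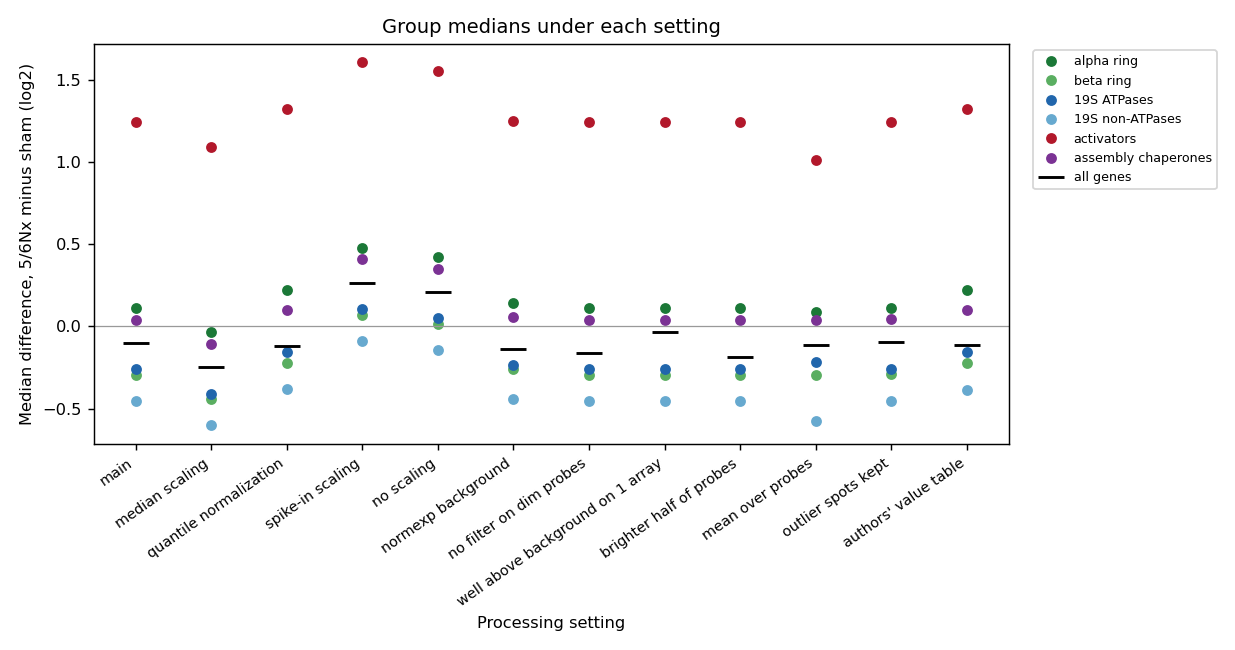
Median difference (y axis, 5/6Nx minus sham, log2) of 6 groups of members and of all genes (black bars) under the main setting and 11 alternatives (x axis). The median of the 4 activators stays above 1 in each setting, although Psme3 reaches at most 0.77 and Psme4 at most 0.01. The 19S non-ATPases are the lowest group in each, and the whole set shifts with the scaling, so that with spike-in scaling only they are below 0.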

How the data were processed

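The authors deposited the scanner files of 2 arrays, 1 per group, on 1 slide and in 1 scan per the file headers, with linear intensity values. Per the submitters' processing notes they came from Agilent Feature Extraction 9.5.1.1, whereas version 10.7.1.1 stands in the parameter block. The processed intensity, per the file headers, was background-subtracted and detrended within the array and not scaled between arrays. Their value table holds linear intensity values with a normalization not given in the sources used here.

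From these files levels were computed as log2 intensity less the 75th percentile of all non-control spots of the array (Python 3.11.15, pandas 2.3.3). Outlier-flagged spots, 41 on the sham and 47 on the 5/6Nx array, were left out, and none was saturated. Well above background were 63.0% and 67.0% of 59305 non-control spots. Genes carry the names in the files, all 46 member names are RefSeq symbols, and probe positions are on mm9. The number of arrays limits the precision, and no p-value was computed.

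Alternatives covered scaling (median, quantile, 8 spike-in probes, none), normexp background (limma 3.58.1, offset 50), dim probes, mean over probes, outlier spots, the value table and a 1.5-fold limit. The steps were tested on simulated data. Members and lists were chosen with earlier results of these data known. Named are the 8 largest differences, catalytic subunits, activators, the inhibitor, each group's extremes, genes with discordant probes, unmeasured members and pathway genes 2-fold apart.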

Additional observations from a re-analysis of the deposited data

How the results depend on the processing

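The count of members at least 2-fold higher was 3 in all 11 alternatives that kept this limit and with 1.5-fold. The count at least 2-fold lower, 3, became 0 with spike-in scaling and 0 with no scaling, 4 with median scaling, 2 with the mean over probes and 7 with 1.5-fold. The settings that moved medians by more than the SD of repeated spots were mostly scalings. With median scaling the median was -0.36 over the members, -0.036 for the alpha ring, -0.44 for the beta ring, -0.41 for 19S ATPases, -0.60 for 19S non-ATPases, 1.09 for activators, -0.11 for assembly chaperones and -0.46 for the pathway list. With spike-in scaling these were, in the same order, 0.16, 0.48, 0.072, 0.11, -0.087, 1.61, 0.41 and 0.052. With no scaling they were 0.10, 0.42, 0.017, 0.052, -0.14, 1.55, 0.35 and -0.0040. The shift is that of all genes, whose median went from -0.10 to -0.25, 0.27 and 0.21, and the share of higher among all gene names 2-fold apart from 54.8% to 41.3%, 79.5% and 76.8%.

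Quantile normalization gave -0.13 over the members, 0.22 and -0.22 for the alpha and beta rings, -0.16 and -0.38 for 19S ATPases and non-ATPases and 1.32 for activators. The authors' deposited value table gave -0.13, 0.22, -0.22, -0.16, -0.38 and 1.32 for the same groups. With the mean over probes the 19S non-ATPases came to -0.58 and the activators to 1.01. The comparison of 19S with 20S was added after the values were seen. No paired analysis was possible because each group has 1 array. Dim probes, such as those of Psma8, limit what can be read of their genes.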
